A study of Bos taurus with 33 samples.

Results

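This report describes 9 bovine genes whose products build the contacts between the oocyte and its cumulus cells (CC). They are the connexin genes GJA1, GJA4, GJC1 and GJB2, the cadherin genes CDH1 and CDH2, and the filopodia genes MYO10, FSCN1 and DAAM1. The members were taken by gene symbol and followed in every oocyte and CC pool. All 9 were listed in both expression tables, out of 14980 genes that the tables shared by Ensembl ID (16279 genes in oocytes and 16244 in CC). Abundance is given as CPM, the reads of a gene per 1000000 reads assigned to genes in its library. A low-value filter asked for 5 CPM or more in 4 pools of oocytes or in 5 of CC. It was passed by 7 of the 9 members in oocytes, where GJB2 and FSCN1 fell below it. In CC 7 of the 9 also passed, with GJA4 and GJB2 below.

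Transcript abundance was measured by RNA sequencing in pools of 4 oocytes, and in pools of the CC of 4 cumulus-oocyte complexes, aspirated from preovulatory follicles of suckled postpartum Hereford-Angus cows. All cows received GnRH on day -9 and prostaglandin F2α on day -2. In the small (largest follicle up to 11.7 mm) and large (from 12.7 mm) follicle classifications, cows that had not shown estrus were given GnRH again on day 0 to induce a gonadotropin surge, whereas the spontaneous classification (11.7 to 14 mm) held cows in estrus that produced their own surge and had no such injection. Small and large follicles gave 6 pools each per cell type, and spontaneous follicles 4 oocyte pools and 5 CC pools. The labels place collection at about 20 h after GnRH or estrus in one field and at about 23 h in another. A pool mixes complexes from several cows, so its value is an average over follicles, and spontaneous differs from the other classifications in both surge and follicle size.

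Gap junctions are channels made of connexins that let small molecules pass between neighbouring cells, and through them cumulus cells supply the oocyte with metabolites and with cyclic GMP that holds meiosis in arrest. Cumulus cells reach the oocyte across the zona pellucida by transzonal projections, thin filopodia-like extensions with an actin backbone, which end at the oocyte surface in cadherin-based adherens junctions and gap junctions. After the gonadotropin surge this coupling is lost while the cumulus expands.

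Reads assigned to genes numbered 7664375 to 17934916 per oocyte pool and 1911600 to 5772431 per CC pool. The limit that a count of 0 allows, the worth of 3 reads, was 0.167 to 0.391 CPM for oocytes and 0.520 to 1.57 CPM for CC, and it covers counting error only. The 13 oocyte markers, such as GDF9 and ZP2, reached a sum of 9204 to 13347 CPM in the oocyte libraries and of 0 to 8.90 CPM in the CC libraries, and 5 of the 13 were not listed in CC. The 14 cumulus and granulosa markers ranged in sum between 2286 and 9327 CPM in CC and between 225 and 837 CPM in oocytes. Of these 14 markers, HAS2 was higher in oocyte pools (193 CPM ± 34.5, SD, n = 16) than in CC pools (75.5 CPM ± 48.2, n = 17). Theca and smooth muscle markers (8 genes) had sums of 272 to 2993 CPM in CC, the highest in spontaneous replicate 2, and of 13.6 to 150 CPM in oocytes. COL1A2 alone had 2117 CPM in spontaneous replicate 2 of CC. Mitochondrially encoded genes took 0.846 to 5.0% of the reads in oocyte pools and 12.6 to 44.0% in CC pools. In such bulk pools, fewer cells of a type and less RNA per cell cannot be told apart.

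The members were split between the cell types, and the connexins and the cadherins were each divided. GJA4, GJC1, CDH1, MYO10 and DAAM1 were more abundant in oocytes, and GJA1, CDH2 and FSCN1 were more abundant in CC. The test was made with limma on log2(CPM + 1) over all 33 pools with the follicle classification as covariate, and a call asked for an adjusted p under 0.05 and a difference of at least 1 on the log2 scale. GJA4 and FSCN1 passed the low-value filter only in the cell type where they were high, so a difference was fixed by the filter and theirs are given as values. The other 6, which passed the filter in both cell types, were all called, 4 higher in oocytes and 2 higher in CC. Of the 8083 transcripts that passed in both, 63.3% were called, 33.3% higher in oocytes and 30% higher in CC, so that a call was the rule for transcripts in general. Over all 11431 transcripts tested these shares were 71.7%, 36.8% and 34.9%. The median size of the difference was 3.63 on the log2 scale over the 6 members and 1.42 over the transcripts that passed in both. In the deposited CPM the pools of the cell types did not overlap for any of the 6 members. The same held for 35.2% of transcripts that passed in both and 36.3% of all tested. For MYO10 the gap was narrow, with 55.6 CPM in the highest CC pool and 57.2 CPM in the lowest oocyte pool. Mitochondrially encoded genes took 22.1% and 0.846% of the reads in these pools. Overlap under other scalings was not counted. The median signed difference over all transcripts, CC minus oocytes, was -0.15 as deposited and 0.20 after median-of-ratios scaling, a shift smaller than any of the members' differences.

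**Figure D1:**
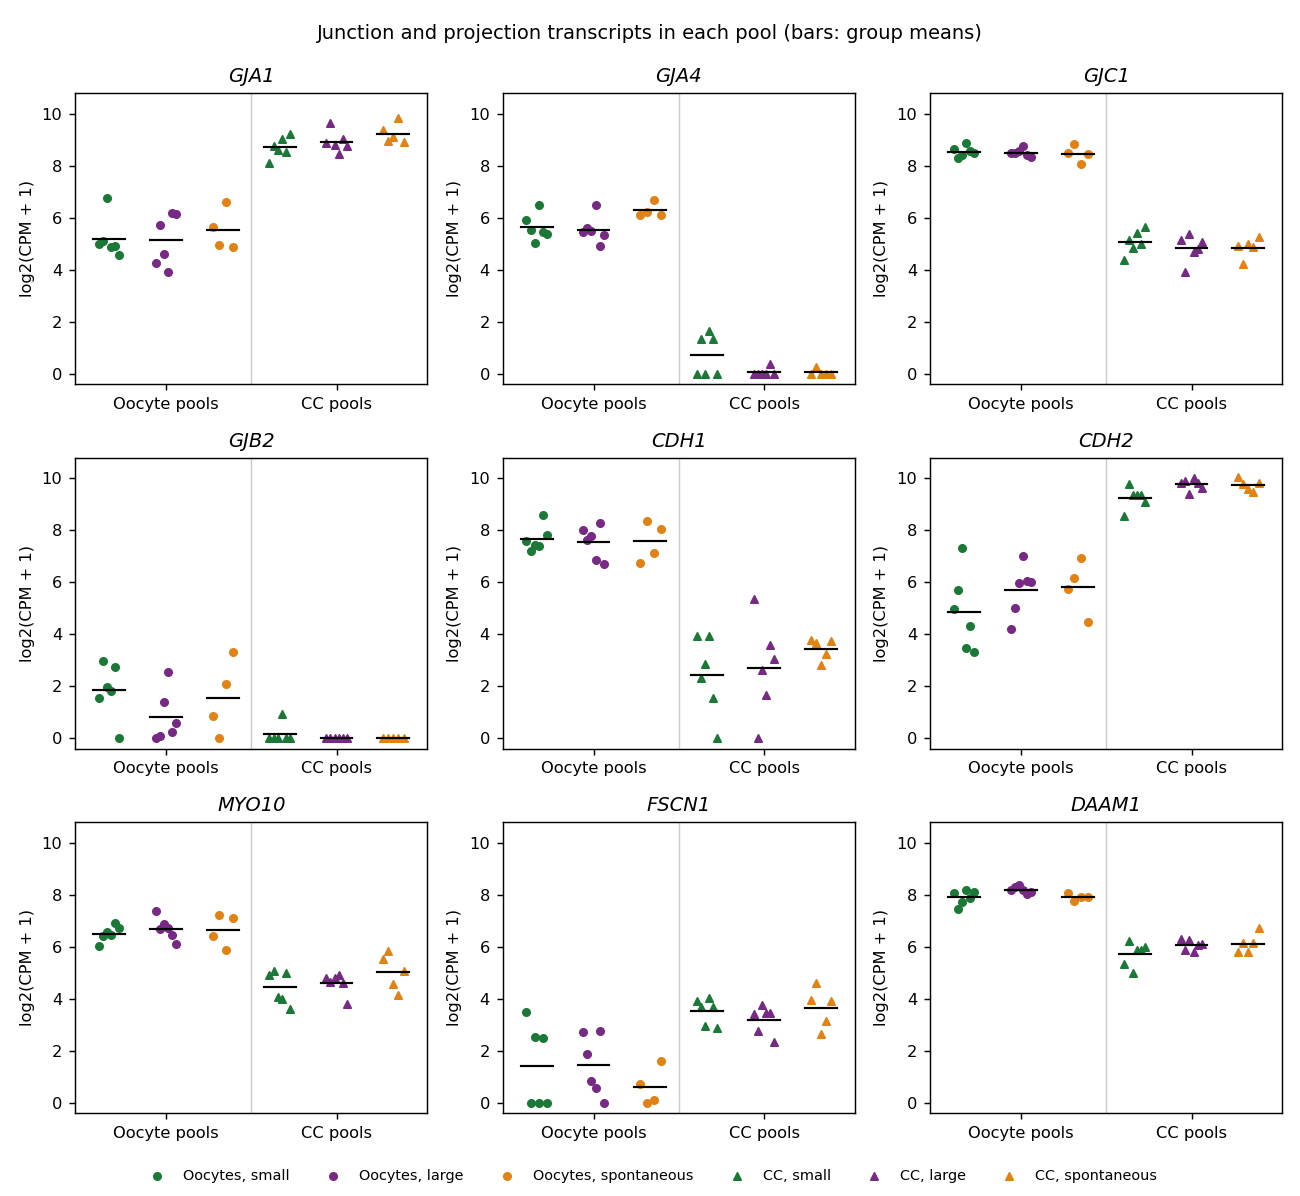
Abundance of the 9 transcripts in each of 33 pools, as log2(CPM + 1) on the vertical axis, with circles for oocyte pools, triangles for CC pools, colours for the follicle classifications and black bars for group means of the log values. GJA4, GJC1, CDH1, MYO10 and DAAM1 stand higher in oocyte pools, GJA1, CDH2 and FSCN1 stand higher in CC pools, and GJB2 is at 0 in 16 of 17 CC pools.

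GJA1 (ENSBTAG00000001835) encodes the main connexin between cumulus cells. In CC its level ran from 278 CPM through a median of 415 to 595 CPM in small pools and from 351 CPM through 457 to 794 CPM in large pools. The 5 spontaneous CC pools had 663, 493, 549, 912 and 478 CPM. In oocytes GJA1 ran from 22.7 through 29.9 to 106 CPM in small pools and from 14.0 through 37.2 to 71.2 CPM in large pools. The 4 spontaneous oocyte pools had 49.5, 30.3, 96.0 and 28.2 CPM. The lowest CC pool was thus above the highest oocyte pool. The mean was 512 CPM ± 159 (SD, n = 17) in CC and 43.9 CPM ± 28.0 (n = 16) in oocytes, an 11.7-fold ratio of means, and the log2 difference, CC minus oocytes, was 3.67 (SE 0.21, limma adjusted p = 6.51e-19).

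GJA4 (ENSBTAG00000013881) encodes the connexin known from the oocyte side of oocyte-granulosa channels, and here it was an oocyte transcript. Small oocyte pools ran from 31.3 through 43.5 to 88.9 CPM and large pools from 29.2 through 43.3 to 89.8 CPM. Spontaneous oocyte pools had 67.9, 74.1, 100.9 and 68.4 CPM. In CC, 12 of 17 pools had no GJA4 read, and the other 5 held 21 reads in all, of which 19 were in small pools (0 to 2.13 CPM), 1 in a large pool (0.284 CPM) and 1 in a spontaneous pool (0.195 CPM). Small replicates 2, 4 and 5 had 5, 7 and 7 reads, above the 3-read limit, and the other 14 CC pools had 1 read or none. The mean was 56.9 CPM ± 22.2 in oocytes and 0.332 CPM ± 0.679 in CC, and on the log2(CPM + 1) scale, which understates the change of so low a value, CC minus oocytes was -5.48 (SE 0.21).

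GJC1 (ENSBTAG00000004036) encodes a connexin best known from the developing heart and vessels. It was among the steadiest members over the oocyte pools, with a coefficient of variation of 14.1% (366 CPM ± 51.4, n = 16). Small oocyte pools ran from 318 through 365 to 463 CPM and large pools from 322 through 357 to 430 CPM, and spontaneous pools had 356, 456, 265 and 352 CPM. CC pools held 30.6 CPM ± 9.04 (n = 17), with 13.9 to 49.4 CPM over all CC pools, a 12.0-fold ratio of means. The log2 difference was -3.58 (SE 0.13, limma adjusted p = 2.23e-25).

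GJB2 (ENSBTAG00000017425) encodes a connexin of epithelia and of the inner ear. It was below the filter in both cell types and was not tested. Small oocyte pools ran from 0 through 2.70 to 6.73 CPM and large pools from 0 through 0.346 to 4.85 CPM, and spontaneous pools had 0.797, 0, 3.19 and 8.98 CPM. Of 17 CC pools, 16 had no read and 1 small pool had 3 reads (0.911 CPM). GJB2 thus had reads in 13 of 16 oocyte pools, with large differences between pools of the same classification, and was not detectable in CC beyond 1 pool at this depth.

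CDH1 (ENSBTAG00000015991), which encodes E-cadherin, and CDH2 (ENSBTAG00000021190), which encodes N-cadherin, had opposite distributions. CDH1 in oocytes ran from 148 through 181 to 388 CPM in small pools and from 103 through 207 to 311 CPM in large pools, and spontaneous pools had 106, 331, 139 and 263 CPM. In CC, CDH1 ran from 0 to 14.4 CPM in small pools, from 0 to 39.6 CPM in large pools and from 5.99 to 12.7 CPM in spontaneous pools. The oocyte mean (208 CPM ± 84.0) was 22.5 times the CC mean (9.24 CPM ± 9.18), with a log2 difference of -4.79 (SE 0.35, limma adjusted p = 1.20e-15). The large CC replicate 1, at 39.6 CPM, stood apart from the other large CC pools, whose highest was 11.1 CPM.

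CDH2 in CC ran from 374 through 658 to 871 CPM in small pools and from 681 through 902 to 1023 CPM in large pools. Spontaneous CC pools had 1046, 871, 763, 712 and 904 CPM. In oocytes CDH2 varied more than any other member that passed the filter there, with a coefficient of variation of 79.1%. Small oocyte pools ran from 8.87 through 24.4 to 160 CPM and large pools from 17.5 through 62.1 to 129 CPM, and spontaneous pools had 52.1, 70.9, 120 and 21.4 CPM. Every CC pool was still above every oocyte pool. The means were 784 CPM ± 176 in CC and 56.8 CPM ± 45.0 in oocytes, a 13.8-fold ratio, with a log2 difference of 4.15 (SE 0.27, limma adjusted p = 2.92e-17).

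The filopodia genes also parted. MYO10 (ENSBTAG00000020126), an unconventional myosin that carries cargo to filopodia tips, was at 101.2 CPM ± 30.2 in oocytes (57.2 to 164 CPM) and 26.6 CPM ± 11.5 in CC (11.3 to 55.6 CPM). Its log2 difference was -1.96 (SE 0.18, limma adjusted p = 5.41e-13). The highest CC pool, spontaneous replicate 2, was just below the lowest oocyte pool, spontaneous replicate 3. DAAM1 (ENSBTAG00000005984), a formin that elongates actin filaments, was at 261 CPM ± 40.5 in oocytes (175 to 333 CPM) and 63.4 CPM ± 16.3 in CC (30.9 to 104 CPM), a log2 difference of -2.06 (SE 0.11, limma adjusted p = 1.35e-19).

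FSCN1 (ENSBTAG00000003191), which encodes the actin-bundling protein fascin, was low in both cell types. CC pools ran from 6.24 through 11.7 to 15.5 CPM in small and from 4.06 through 9.72 to 12.5 CPM in large follicles, and spontaneous pools had 14.4, 23.6, 5.26, 7.80 and 13.9 CPM. In oocytes 5 of 16 pools had no read, 3 reached 5 CPM and the highest, small replicate 1, had 10.1 CPM. The pools of the cell types overlapped. The means were 10.7 CPM ± 4.84 in CC and 2.34 CPM ± 3.0 in oocytes, and the log2 difference was 2.22 (SE 0.33).

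**Figure D2:**
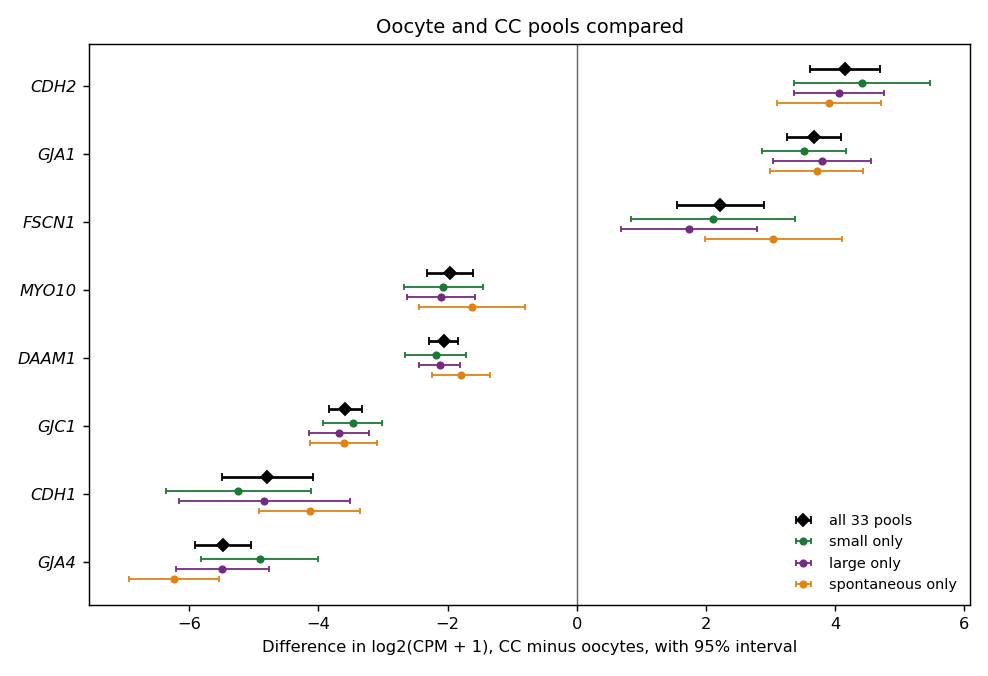
Difference in log2(CPM + 1) between CC and oocyte pools (horizontal axis, CC minus oocytes, with 95% intervals) for the 8 members tested, over all 33 pools (black) and within each follicle classification (colours). No interval crosses 0, but the side of GJA4 and FSCN1 was fixed by the low-value filter. Over all pools the differences run from -5.48 for GJA4 to 4.15 for CDH2, and within classifications from -6.23 for GJA4 in spontaneous to 4.41 for CDH2 in small follicles.

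The differences were also sized within each follicle classification. For the 6 members that passed the filter in both cell types, the pools of the cell types did not overlap. Their direction in small, large and spontaneous follicles taken alone was thereby fixed in advance and adds no support. The intervals of these 6 members left out 0. The values of GJA4 and FSCN1, whose direction was fixed by the filter, ranged most. In CC, GJA4 had 21 reads in all, 19 of them in small pools. GJA4 was at -4.91 in small (95% interval -5.82 to -4.00), -5.49 in large (-6.21 to -4.76) and -6.23 in spontaneous follicles (-6.93 to -5.53). FSCN1 was at 2.11 in small, 1.73 in large and 3.04 in spontaneous follicles. GJA1 stayed between 3.52 and 3.79 and GJC1 between -3.68 and -3.47.

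Because GJA1 and CDH2 were minor transcripts in oocyte pools and abundant in CC, their oocyte levels were set beside those of the cumulus markers. The oocyte mean as a share of the CC mean was 8.58% for GJA1 and 7.25% for CDH2. Over the 10 cumulus markers called higher in CC, a list trimmed after seeing the values, this share ran from 1.36% (PTX3) through a median of 4.38% to 23.2% (CYP19A1), with 1.41% for TNFAIP6 and 8.62% for PTGS2. The trimming fixed a share below that of CC, and outside the trimmed list HAS2 was at 255% and GREM1 at 293%, so the shares are a description. Across the 16 oocyte pools, GJA1 rose with the summed level of all 14 markers (Pearson r = 0.536, permutation p = 0.0304, adjusted 0.0457 over 3 relations, and Spearman rho = 0.53, permutation p = 0.0399, adjusted 0.0457). Without the 2 pools farthest from the median marker level r was 0.376, so for GJA1 the relation rested partly on them. Within small pools r was 0.943 and within large pools 0.451. For CDH2, r was 0.567 (permutation p = 0.0199, adjusted 0.0457) and rho 0.659 (p = 0.0069, adjusted 0.0207), and r was 0.641 without the 2 farthest pools, 0.943 within small and 0.745 within large pools. HAS2, itself higher in oocytes, made up 42.7% of the 14-marker sum in oocyte pools. With the sum of the 10 trimmed markers r was 0.523 for GJA1 and 0.572 for CDH2, given with no test. PTGS2 weighs most in that trimmed sum, with an oocyte mean of 163 CPM, followed by INHBA at 36.8 CPM. The PTGS2 pools of the cell types overlapped, so the trimmed r is no check against a broad set of markers. With the 14-marker sum, after centring each classification, r was 0.546 for GJA1 and 0.642 for CDH2. Between GJA1 and CDH2 themselves r was 0.488 (permutation p = 0.0558, adjusted 0.0558) and rho 0.512 (p = 0.0457, adjusted 0.0457), with r = 0.195 without the 2 pools farthest in GJA1. Within small pools it was 0.904 and within large pools -0.04, so this relation did not hold in large pools. Small replicate 3 and spontaneous replicate 3 were high in GJA1, CDH2 and the markers alike, whereas large replicate 4 had the lowest GJA1 of all oocyte pools (14.0 CPM) beside high CDH2 (129 CPM) and markers (544 CPM). The part of adhering CC in the oocyte levels was not tested.

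**Figure D3:**
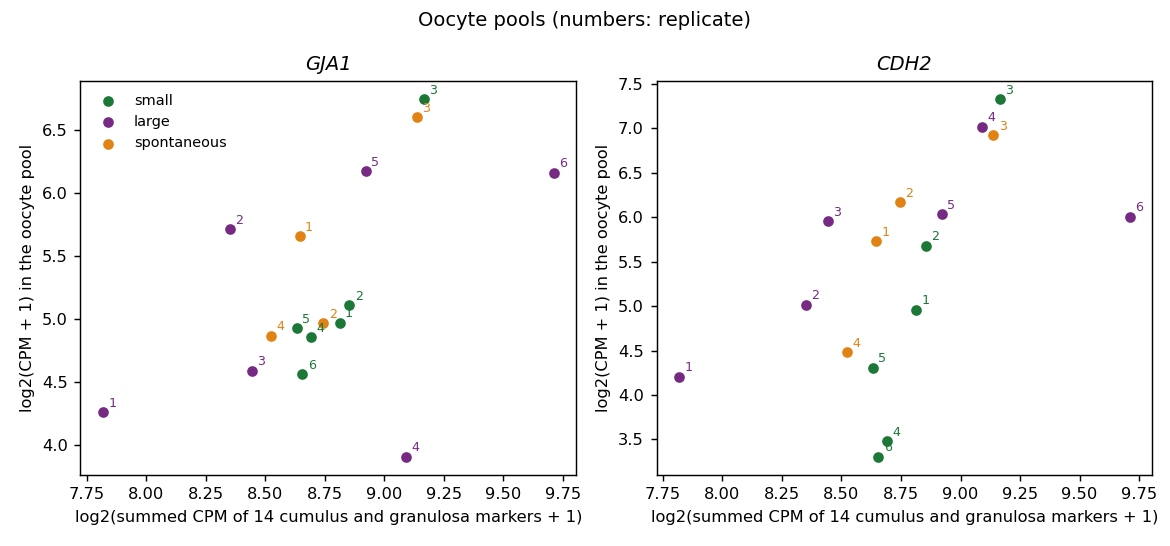
GJA1 (left) and CDH2 (right) in the 16 oocyte pools, as log2(CPM + 1), against log2 of the summed CPM of 14 cumulus and granulosa markers plus 1, with colours for follicle classifications and the replicate number beside each point. The points rise from left to right (r = 0.536 and 0.567), and large replicate 4 stands low in GJA1 and high in CDH2.

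The study's own question was whether the complex differs with follicle size and with the way the surge arose. None of the members tested passed the threshold for differences between follicle classifications, a nominal p of 0.01 or less in limma, in any of 6 comparisons. Among all transcripts tested, 0.655% passed in oocytes between small and large, 0.774% between small and spontaneous and 0.943% between large and spontaneous follicles. The corresponding shares in CC were 0.813%, 2.38% and 1.66%. Of the 42 tests of members (7 in each comparison), 0 were called and 4 had an unadjusted p under 0.05, and the smallest adjusted p was 0.530. Tests of whole reads with edgeR and DESeq2 also called 0 members. At shares this low, no call among 7 members does not set them apart from other transcripts. In comparisons with small oocyte pools a transcript also had to pass without small replicate 3, the library that the study left out in its second analysis. Nothing in the labels ties a cow to a pool, and the p-values measure the spread between these pools. The pools of the classifications overlapped for every member in each comparison. How often this held over all transcripts was not counted, so it does not set the members apart.

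**Figure D4:**
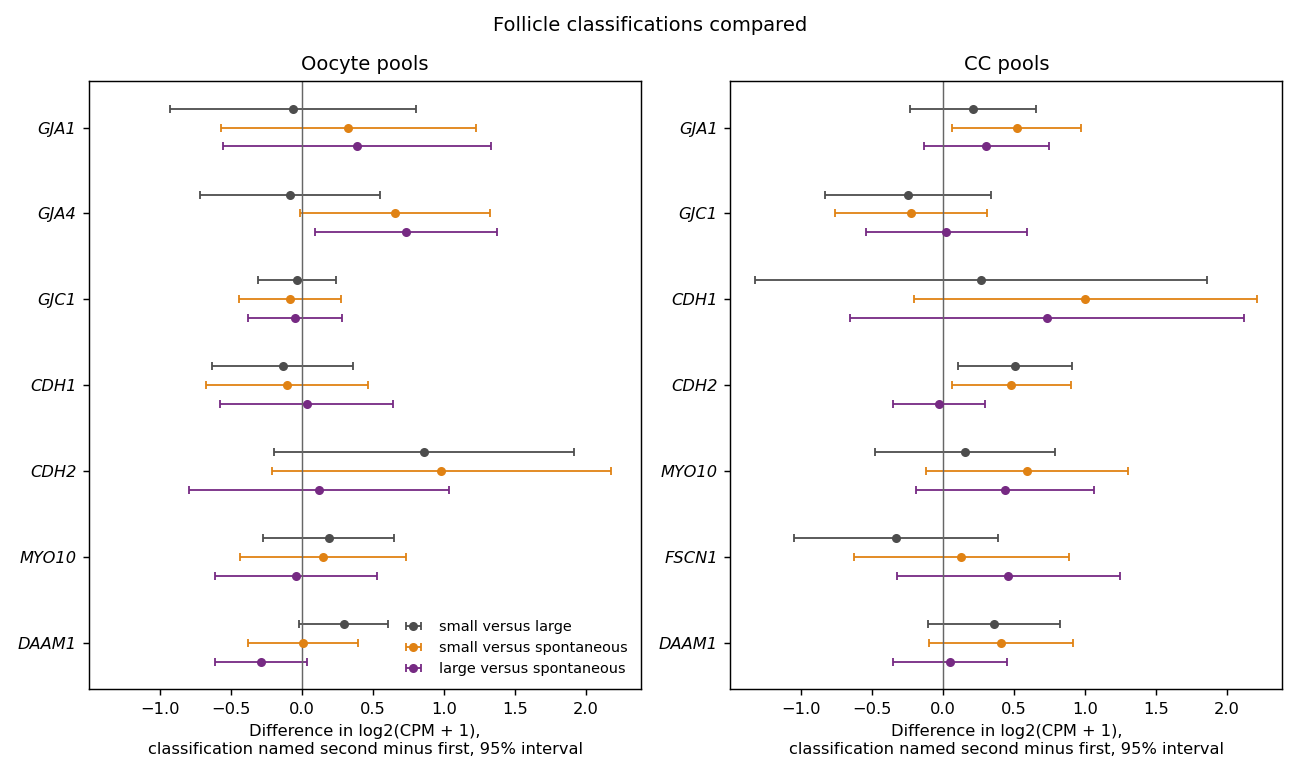
Differences in log2(CPM + 1) between follicle classifications (horizontal axis, the classification named second minus the first, with 95% intervals) for the 7 members tested in oocyte pools (left) and in CC pools (right). Most intervals cross 0, and those of GJA1 and CDH2 in CC and of GJA4 in oocytes that leave it out had p above 0.01.

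In CC, the members nearest the threshold were CDH2 and GJA1, and both were lowest in small follicles. CDH2 was at 629 CPM ± 163 in small (n = 6), 875 CPM ± 121 in large (n = 6) and 859 CPM ± 130 in spontaneous pools (n = 5). The log2 difference was 0.51 between small and large (95% interval 0.11 to 0.91, limma p = 0.0152, adjusted p = 0.999, exact permutation p = 0.0130) and 0.48 between small and spontaneous (0.06 to 0.90, limma p = 0.0272, exact p = 0.0303). Small replicate 1, at 374 CPM, was the lowest pool. Large and spontaneous pools differed by -0.03 (-0.35 to 0.30). For CDH2 the small versus large difference passed the threshold without small replicate 2 (0.61) and with all classifications in one fit (0.51). Under the other scalings given below it was smaller and did not pass.

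GJA1 was at 432 CPM ± 113 in small, 502 CPM ± 153 in large and 619 CPM ± 179 in spontaneous CC pools. It differed between small and spontaneous by 0.52 (95% interval 0.07 to 0.97, limma p = 0.0270, adjusted p = 0.53, exact permutation p = 0.0563), and by 0.21 and 0.31 in the other comparisons. Over all 9712 transcripts tested in CC, the median difference was 0.16 between small and spontaneous and 0.11 between large and spontaneous, in the same direction, and 0.01 in both after median-of-ratios scaling. Mitochondrially encoded genes, which share the total that CPM is scaled to, took a median of 23.5% of reads in small (12.6 to 44.0%), 21.4% in large (14.4 to 28.0%) and 15.6% in spontaneous CC pools (14.3 to 22.1%). With these genes left out of the total, the small versus large difference of CDH2 was 0.39 (SE 0.21). The small versus spontaneous differences were then 0.30 (SE 0.23) for CDH2 and 0.34 (SE 0.20) for GJA1. None of these had a p under 0.05. After median-of-ratios scaling the same differences were, in the same order, 0.45 (SE 0.21), 0.32 (SE 0.23) and 0.36 (SE 0.21). Only CDH2 between small and large kept a p under 0.05 there. GJA1 between small and spontaneous passed the threshold without small replicate 6 (0.62), and CDH2 without small replicate 2 (0.58).

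The other members in CC differed by -0.33 to 1.0 on the log2 scale and none had a p under 0.05. CDH1 had the widest intervals, with 1.0 between small and spontaneous (95% interval -0.21 to 2.21, limma p = 0.0983, exact permutation p of mean CPM = 0.290). MYO10 was at 22.5 CPM ± 9.51 in small, 23.9 CPM ± 5.81 in large and 34.7 CPM ± 15.9 in spontaneous pools, and 2 of the 5 spontaneous pools (45.3 and 55.6 CPM) were above every small and large pool. DAAM1 was at 53.7 CPM ± 15.8, 67.0 CPM ± 9.46 and 70.8 CPM ± 20.1, with a difference of 0.41 between small and spontaneous (-0.10 to 0.91). GJC1 and FSCN1 had no interval beyond -1.05 to 1.25.

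In oocytes, GJA4 was the member nearest the threshold. It was at 51.3 CPM ± 20.6 in small (n = 6), 48.7 CPM ± 21.1 in large (n = 6) and 77.8 CPM ± 15.6 in spontaneous pools (n = 4). The lowest spontaneous pool (67.9 CPM) was above 5 of 6 small and 5 of 6 large pools, the exceptions being small replicate 4 (88.9 CPM) and large replicate 4 (89.8 CPM). The log2 difference was 0.74 between large and spontaneous (95% interval 0.10 to 1.37, limma p = 0.0259, adjusted p = 0.968, exact permutation p = 0.0476) and 0.65 between small and spontaneous (-0.01 to 1.32, p = 0.0546, exact p = 0.0667). Without large replicate 4 the former was 0.93 and past the threshold. Small and large differed by -0.08 (-0.71 to 0.55).

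CDH2 in oocytes was at 46.4 CPM ± 57.8 in small, 61.0 CPM ± 38.3 in large and 66.2 CPM ± 41.5 in spontaneous pools, and its value hung on 1 pool. With all pools it differed by 0.86 between small and large (95% interval -0.19 to 1.92, exact permutation p = 0.578) and by 0.98 between small and spontaneous (-0.21 to 2.18, exact p = 0.505). Without small replicate 3, which had 160 CPM, these were 1.36 and 1.48, both past the threshold. That pool also had the highest summed cumulus markers of the small oocyte pools (573 CPM against 396 to 462 CPM in the others), and their part in the CDH2 value was not tested.

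DAAM1 in oocytes was at 242 CPM ± 43.9 in small, 294 CPM ± 26.5 in large and 241 CPM ± 19.7 in spontaneous pools. All 6 large pools were above 3 of the 4 spontaneous pools, and the remaining one, spontaneous replicate 1 (265 CPM), was above large replicate 5 (260 CPM). The difference between large and spontaneous was -0.28 (95% interval -0.61 to 0.04, limma p = 0.0812, exact permutation p = 0.0190) and between small and large 0.29 (-0.02 to 0.61, p = 0.0631, exact p = 0.0346). The former passed the threshold without the low-value filter. In all, 54 exact tests were run on the members, so a few such p-values are to be read beside that number. GJC1 had intervals within -0.44 to 0.28 in all oocyte comparisons. CDH1, MYO10 and GJA1 in oocytes differed by -0.13 to 0.39 and none had a p under 0.05.

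Whether a difference between classifications was itself different in oocytes and CC was tested as an interaction in all 33 pools. No member passed a nominal p of 0.01 in any pair of classifications, where 1.14% of transcripts passed for small versus large, 1.35% for small versus spontaneous and 0.936% for large versus spontaneous. GJA4 was nearest, with a spontaneous minus small difference that was 1.32 lower in CC than in oocytes (interaction -1.32, 95% interval -2.36 to -0.28, limma adjusted p = 0.761). It passed without oocyte small replicate 4 (-1.49) and without each of CC small replicates 1, 3 and 6 (-1.46). The CC side of this value rested on the 21 GJA4 reads given above.

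Of the other connexin and pannexin genes, PANX1, which forms channels of its own, was higher in oocytes. It was at 25.5 CPM ± 10.5 in oocytes and 11.2 CPM ± 4.41 in CC (-1.11, SE 0.20). Its difference fell short of the size limit after median-of-ratios scaling (-0.75), without the mitochondrially encoded genes (-0.85) and with DESeq2 (-0.81).

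Of the adherens junction and gap junction partners, 15 of 20 listed symbols could be tested as separate genes. Between cell types 5 were higher in CC, 5 were higher in oocytes and 5 were not called, with a median of -0.10 against -0.15 over all transcripts tested. Among all transcripts tested 71.7% were called, 34.9% higher in CC and 36.8% higher in oocytes. Of the 13 that passed the filter in both cell types 8 were called, beside 63.3% of all such transcripts, a share near that background. CDH3 (P-cadherin) was at 345 CPM ± 51.9 in oocytes and 5.82 CPM ± 3.19 in CC (-5.84, SE 0.20), on the same side as CDH1. CTNND1, a catenin that binds cadherin tails, was at 923 CPM ± 176 and 137 CPM ± 27.1 (-2.76, SE 0.10). In the other direction, JUP (plakoglobin) was at 3.66 CPM ± 5.03 in oocytes and 106 CPM ± 31.4 in CC (5.17, SE 0.33), and the adhesion receptor gene NECTIN2 at 0.122 CPM ± 0.306 and 14.7 CPM ± 4.97 (3.77, SE 0.18). NECTIN2 passed the filter in CC alone, so its side was fixed by it. CTNNB1, encoding beta-catenin, was at 294 CPM ± 45.6 and 508 CPM ± 85.0, a difference of 0.78 that was below the size limit. It is named here, outside the rule for naming, as the shared partner of both cadherins.

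Of the filopodia and actin bundle genes, 28 of 34 were tested. Of these, 15 were higher in oocytes, 6 were higher in CC and 7 were not called. Over all transcripts tested 71.7% were called, 36.8% higher in oocytes and 34.9% higher in CC. The median difference was -1.53, against -0.15 over all transcripts. DAAM2, FMNL1, ESPN and PLS1 passed the filter in oocytes alone, and EVL and VASP in CC alone, so their side was fixed by it. Of the 22 that passed the filter in both cell types 15 were called, 11 of them higher in oocytes, beside 63.3% and 33.3% of all such transcripts. Over these 22 the median difference was -1.13, against -0.14 over all transcripts that passed in both. ACTN1, an actin crosslinker, was at 242 CPM ± 29.4 in oocytes and 5.42 CPM ± 5.72 in CC (-5.56, SE 0.24). EPS8, which caps and bundles actin, was at 87.6 CPM ± 26.2 and 3.62 CPM ± 2.88 (-4.48, SE 0.26). PLS3, an actin-bundling plastin, was at 6.87 CPM ± 15.6 in oocytes and 240 CPM ± 81.4 in CC (6.06, SE 0.39), and FLNA (filamin A) at 8.61 CPM ± 6.87 and 252 CPM ± 57.3 (5.19, SE 0.33). One oocyte pool, large replicate 6, had 63.3 CPM of PLS3 and also the highest summed cumulus markers (837 CPM), whereas the other 15 oocyte pools had at most 12.8 CPM.

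**Figure D5:**
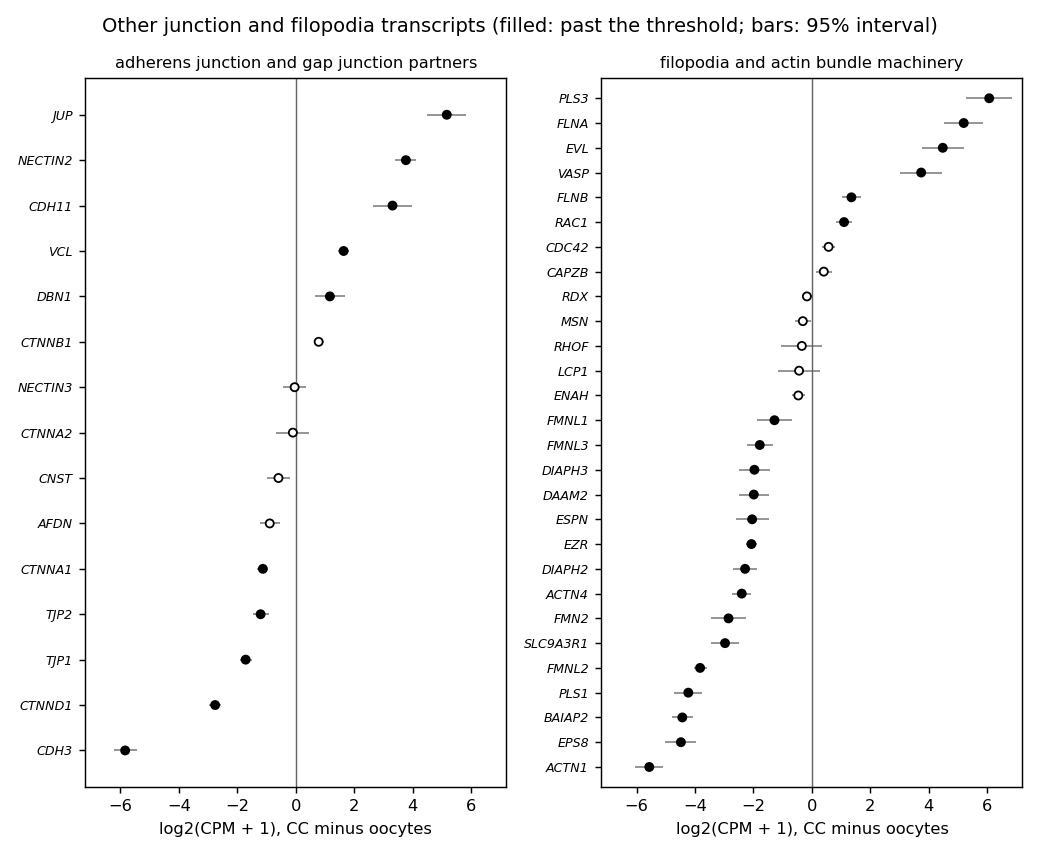
Difference in log2(CPM + 1), CC minus oocytes, with 95% intervals, for 15 junction partners (left) and 28 transcripts of filopodia and actin bundle machinery (right), with filled points for those past the threshold. Most filopodia genes lie left of 0, higher in oocytes, while JUP, NECTIN2, CDH11, PLS3, FLNA, EVL and VASP lie far to the right. Of the latter, NECTIN2, CDH11, EVL and VASP passed the filter in CC alone, so their side was fixed by it.

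Between follicle classifications these lists gave 1 call among 42 transcripts in oocytes and 2 among 40 in CC, all 3 between small and spontaneous follicles, where 0.774% and 2.38% of all transcripts passed, and none in the other 4 comparisons. Counts this small do not set the lists apart. In CC, CDH11, a cadherin of mesenchymal cells, was higher in spontaneous than in small follicles. Small pools ran from 1.39 through 9.19 to 19.3 CPM, and spontaneous pools had 49.7, 78.4, 43.2, 24.1 and 18.5 CPM, so that only the lowest spontaneous pool overlapped with small pools. The log2 difference was 2.10 (SE 0.48, limma p = 0.000361, adjusted p = 0.191, exact permutation p = 0.00866). Spontaneous replicate 2, the highest in CDH11, also had the highest theca and smooth muscle sum (2993 CPM, against 272 to 1238 CPM in small and 617 to 1334 CPM in the other spontaneous pools). COL1A2 alone made up 2117 CPM of that sum. Of the same list, CYP17A1 had at most 0.781 CPM in CC pools, whereas INSL3 had a mean of 410 CPM there. The part of theca or muscle cells was not tested. Without any single pool CDH11 remained past the threshold (1.72 to 2.35 over 20 alternatives).

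PLS3 ran from 112 through 207 to 263 CPM in small CC pools, and spontaneous pools had 218, 342, 389, 358 and 282 CPM, of which 4 were above every small pool. It also rose from small (193 CPM ± 56.9, n = 6) to spontaneous pools (318 CPM ± 68.0, n = 5), by 0.74 (SE 0.22, limma p = 0.00385, adjusted p = 0.363, exact permutation p = 0.0130), though not without small replicate 2 or without spontaneous replicate 2, 3 or 4 (p = 0.0103 to 0.0141). CAPZB, a subunit of the actin capping protein, ran from 29.4 through 61.0 to 80.9 CPM in small oocyte pools, and spontaneous pools had 84.9, 106, 137 and 80.8 CPM. It rose in oocytes from small (56.9 CPM ± 19.8) to spontaneous (102 CPM ± 25.7) pools by 0.88 (SE 0.32, p = 0.00953, adjusted p = 0.987, exact permutation p = 0.0190), and lost the call in 12 of 19 alternatives, among them those without small replicate 2, 4 or 6 or spontaneous replicate 1, 2 or 3 (p = 0.0117 to 0.0485). In the interaction, CDH3 was called for small versus large (-1.16, SE 0.42, limma adjusted p = 0.861). It was at 7.6 CPM ± 3.80 in small and 3.31 CPM ± 1.88 in large CC pools, beside 341 CPM ± 67.8 and 350 CPM ± 52.5 in oocytes, and the call was lost in 24 of 38 alternatives, 23 of them among the 33 omissions of 1 pool (smallest size -0.78, without CC large replicate 5).

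Transcripts whose pattern over pools was most like that of a member were sought by Pearson correlation of log2(CPM + 1), as a description with no p-value, since they were picked as the highest of all tested and all pools share their depth scaling. For GJA1 over the 17 CC pools, among 9711 others, these were LYSMD3 (r = 0.850, rho = 0.836), JMJD1C (r = 0.833, rho = 0.799) and WLS (r = 0.831, rho = 0.897). Without the 2 pools farthest from the GJA1 median r was 0.848, 0.789 and 0.737. For GJA4 over the 16 oocyte pools, among 10075 others, they were LYPD1 (r = 0.791, rho = 0.788), the gene without a symbol ENSBTAG00000045813 (r = 0.755, rho = 0.744) and HBEGF (r = 0.742, rho = 0.756), with r of 0.697, 0.663 and 0.813 without the 2 farthest pools.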

How the data were processed

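Total RNA of each pool was amplified with Ovation RNA-Seq System V2 and sequenced as single-end reads. After trimming, the authors mapped reads with Hisat2 (build UMD3.1), assigned them to Ensembl genes by featureCounts and deposited CPM values, in 1 table per cell type. The strand setting is not given in the sources used here. Amplified reads are not independent molecules. Each deposited CPM column summed to 1000000, and its values were whole multiples of 1 read (tolerance 0.01), which gave the reads per pool.

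From the deposited CPM, log2(CPM + 1) was tested with limma (3.58.1, R 4.3.3, trend) for each pair of classifications at a nominal p of 0.01, with Benjamini-Hochberg adjustment over all transcripts. Cell types and the interaction were tested in all 33 pools. The authors called transcripts by edgeR and DESeq2 on counts. Here edgeR (4.0.16) and DESeq2 (1.42.0) were run on the recovered whole reads as alternatives. Exact two-sided permutation tests of mean CPM used scipy 1.17.1, and the 100000-resample permutations for correlations used numpy 2.4.6. Of these, the limma tests between classifications and between cell types were tried on simulated reads.

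Each pool was also left out in turn, and fits were repeated with a replicate block, with the classifications fitted jointly, with median-of-ratios scaling, without the 13 genes of the mitochondrial genome, with 0.1 as pseudocount, and with either no low-value filter or one on the mean (1 CPM). All members were named. Of the wider lists, the called transcripts were named for classifications (at most 4 by p) and the 2 largest differences each way between cell types, and for likeness the 3 highest r. A result of the connexin and pannexin list is not reported here. The members and lists were chosen with earlier results of these data known. Per the study's methods, CC pools came from the same complexes as the oocyte pools, but the deviations of same-numbered oocyte and CC pools correlated at -0.0397 to 0.077, and the cell type test was not blocked. No 2 pools of the same cell type and classification, the only pairs compared, agreed within sampling noise. No coordinates or sequences are given because no genome of the build was used here.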

Additional observations from a re-analysis of the deposited data

Results flagged for a closer look

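In 52 sets of pools (a member in a cell type and classification), 10 had 1 pool whose gap to the nearest other pool exceeded Dixon's 95% critical value for that number of pools. Chance marks about 1 in 20 such sets if the values are normally distributed. CPM were used here without a log, so that rate need not hold for them. Sets with nearly all pools at 0 are marked by a single read. No cause was tested for any of them.

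Among oocyte pools, small replicate 3 stood apart in GJA1 (106 CPM, others 22.7 to 33.5 CPM) and in CDH2 (160 CPM, others 8.87 to 50.3 CPM). Small replicate 5 stood apart in CDH1 (388 CPM, others 148 to 225 CPM). Large replicate 4 was highest in GJA4 (89.8 CPM, others 29.2 to 47.5 CPM) and in GJB2 (4.85 CPM, 60 reads, others 0 to 1.63 CPM).

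Among CC pools, large replicate 1 was highest in CDH1 (39.6 CPM, 171 reads, others 0 to 11.1 CPM) and large replicate 6 was lowest in MYO10 (12.9 CPM, others 23.3 to 29.1 CPM). The remaining sets were at the limit of detection. GJA4 had 1 read in large replicate 5 (0.284 CPM) and 1 read in spontaneous replicate 2 (0.195 CPM), and GJB2 had 3 reads in small replicate 4 (0.911 CPM), with the other pools of each set at 0.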

How the results depend on the processing

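The cell type differences of the 8 members kept their direction and their call in all 328 alternative fits, 41 for each member. Much of this count was fixed in advance. The filter fixed the difference of GJA4 and FSCN1. For the other 6 members, whose pools did not overlap, leaving out 1 pool could not reverse the direction. Without the filter GJB2 made 9 calls. Of 840 fits of members between classifications, 831 kept the call and 9 passed the threshold anew, and no called value changed sign. The number of members called, 0 as reported, ranged from 0 to 1 over omissions of single pools in all 3 oocyte comparisons, in both CC comparisons with small follicles, and in the interaction. It was 0 in all 20 alternatives for CC of large versus spontaneous follicles. The count was also 1 without the filter in oocytes of large versus spontaneous follicles (DAAM1), and 1 with 3 classifications in one fit in CC of small versus large follicles (CDH2). With the replicate block it was 1 in CC of small versus spontaneous follicles (GJA1, 0.62). That block also drops small replicate 6, which has no spontaneous partner.

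Same-numbered pools of different classifications correlated at -0.19 to 0.224 in their deviations, so the numbers were not taken as pairs. The replicate block changed no other call of a member, the paired cell type test included, which used small and large pools only. CAPZB was at 1.02 under the block, no smaller than without it, but did not also pass without small replicate 3. Depth limits GJA4 and GJB2 in CC, where 3 reads are worth 0.520 to 1.57 CPM.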
